A study of Homo sapiens with 24 samples.

Results

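The unfolded protein response and the chaperones of the endoplasmic reticulum (ER) were followed as a set of 30 named genes in differentiated THP-1 cells. The members were the rows of the deposited table whose gene symbol was on the list, 30 of 38735 named genes. They comprise 5 sensors and transcription factors, 11 chaperones and cochaperones, 4 protein disulfide isomerases, 7 genes of ER-associated degradation, and SEC61B, SEC24D and WFS1, which serve translocation, export and the ER membrane. Of these, 29 had a mean of at least 10 normalized counts over the 24 libraries and were tested among 13900 genes, and WFS1 was not tested.

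THP-1 is an established human monocytic leukaemia line. Cells of all 4 groups were first differentiated towards macrophages with PMA, a phorbol ester, at 100 nM for 24 h, so that no group without PMA was compared. DCVC is a cysteine conjugate formed in the body from the solvent trichloroethylene, and LPS is a component of the outer membrane of gram-negative bacteria. DCVC_LPS cells received 5 µM DCVC for 24 h and then, in fresh medium, 100 ng/mL LPS for 4 h. LPS cells received medium for 24 h and then 100 ng/mL LPS for 4 h. DCVC cells received 5 µM DCVC for 24 h without LPS, and Control cells received medium only. Whether DCVC and Control cells also had fresh medium for a further 4 h is not stated here. The comparisons of LPS with no LPS may therefore include a difference in medium or time, which was not tested. Each group held 6 libraries with the replicate letters A to F. The labels do not say whether the letters stand for separate cultures, so the p-values measure the spread between these libraries, which may be technical.

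When unfolded proteins accumulate in the ER, 3 sensors in its membrane signal to the nucleus and to the translation machinery. ERN1 (IRE1) splices the XBP1 mRNA into the form that encodes an active transcription factor, EIF2AK3 (PERK) phosphorylates the initiation factor eIF2, and ATF6 is cut in the Golgi to release a transcription factor. Their targets include chaperones such as HSPA5 (BiP), disulfide isomerases that form and rearrange disulfide bonds, and the machinery that returns misfolded proteins to the cytosol for destruction by the proteasome. Macrophages are known to engage the ERN1 and XBP1 arm after Toll-like receptor signalling. The table holds a single value per gene, so spliced and unspliced XBP1 mRNA were not told apart.

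The element through which ATF6 and XBP1 act is known as the ER stress response element (ERSE). The promoters of the members are shown here because they carry it far more often than promoters at large. The members were chosen as genes of this response, so that excess is not an independent test. The promoters at large include those of the members. In RefSeq promoters of build GRCh38.p14, which run from 250 bases before to 50 after the start of each gene, 26 of the 30 members were matched. PDIA3, DERL1, DERL3 and SEC24D had no entry. The search covered both strands, and the letters of the ERSE were CCAAT, any 9 bases and CCACG. It was found in 6 of the 26 matched members (23.1%) and in 22 of 27305 promoters (0.081%). A second form, ERSE-II, was searched as ATTGG, any 1 base and CCACG, and was found in 3 of the 26 members (11.5%) and in 15 of 27305 promoters (0.055%). The letters TGACGTGG, a form of the unfolded protein response element, were found in HYOU1 alone among the members, overlapping its ERSE-II, and in 217 promoters (0.795%). A CCAAT box alone, which every ERSE and ERSE-II contains on one strand, was found in 23 of the 26 members (88.5%) and in 35.7% of all promoters. A match describes letters in this window and does not show that a factor binds there.

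Each copy is printed 5′ to 3′ on the strand of its gene with 5 flanking bases on either side, and the capitals mark the outer blocks of the motif. The copies lay between 34 and 225 bases before the start that the RefSeq promoter entry uses, and where a gene also has an earlier annotated start a copy can lie inside the gene. In CALR, CRELD2, HYOU1, SDF2L1 and the copy of HSP90B1 nearer its start the motif reads in reverse.
HSPA5 ERSE at chr9:125241386-125241414, minus strand: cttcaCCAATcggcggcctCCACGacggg
HSP90B1 ERSE at chr12:103930211-103930239, plus strand: cctgaCCAATcggaaggagCCACGcttcg
HSP90B1 ERSE nearer the start at chr12:103930316-103930344, plus strand: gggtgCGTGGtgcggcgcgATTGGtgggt
CALR ERSE at chr19:12938379-12938407, plus strand: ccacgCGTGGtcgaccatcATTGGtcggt
CANX ERSE at chr5:179698773-179698801, plus strand: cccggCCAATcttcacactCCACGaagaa
CRELD2 ERSE at chr22:49918549-49918577, plus strand: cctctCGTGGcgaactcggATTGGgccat
XBP1 ERSE at chr22:28800598-28800626, minus strand: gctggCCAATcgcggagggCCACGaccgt
HERPUD1 ERSE-II at chr16:56932020-56932040, plus strand: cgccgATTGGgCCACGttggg
HYOU1 ERSE-II at chr11:119057375-119057395, minus strand: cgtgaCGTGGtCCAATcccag
HYOU1 ERSE-II nearer the start at chr11:119057269-119057289, minus strand: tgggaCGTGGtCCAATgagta
SDF2L1 ERSE-II at chr22:21642109-21642129, plus strand: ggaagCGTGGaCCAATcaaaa

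The values are normalized counts, which are reads divided by a factor for each library. Libraries held 18478618 to 30107819 reads in named genes. The normalized totals differed between groups, at 21831254 ± 235112 in DCVC_LPS, 29427331 ± 839114 in LPS, 17774466 ± 305501 in DCVC and 21135356 ± 563705 in Control (mean ± SD, n = 6 each). Changes are therefore given on the deposited scale and, for most members whose call or direction differs, also after every library was set to the same total. Over the 145 tests of members in 5 comparisons, equal totals brought 33 calls, ended 27 and turned 2 called changes into calls of the other sign. Equal totals moved the median log2 change of all tested genes to -0.50 for LPS minus Control, 0.22 for DCVC minus Control, 0.36 for DCVC_LPS minus LPS and -0.33 for DCVC_LPS minus DCVC. Those medians lay at -0.03, -0.03, -0.07 and -0.03 on the deposited scale. In bulk libraries, fewer cells of a type and less RNA per cell cannot be told apart.

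The myeloid identity of the cells was checked with 9 markers. Their summed level ran from 37476 to 41772 normalized counts in DCVC_LPS, from 39453 to 42112 in LPS, from 51499 to 58245 in DCVC and from 76482 to 87827 in Control. SPI1, LYZ, CSF1R, ITGAM, PTPRC, FCER1G and TYROBP were present in all libraries, whereas the macrophage marker CD68 was low, with group medians between 5.09 in Control and 23.8 in DCVC_LPS. The monocyte marker CD14 had medians of 30.9 in DCVC_LPS, 162 in LPS, 267 in DCVC and 2426 in Control. The summed level of 8 markers of T cells, B cells, epithelium and fibroblasts lay between 34.9 and 73.9 in all libraries, and CD3E, MS4A1 and EPCAM had a median of 0 in each group. The myeloid sum was lower in each treated group than in Control, but its genes did not move in one direction. CSF1R, the receptor of a macrophage growth factor, had medians of 10768 in DCVC_LPS, 9202 in LPS, 23252 in DCVC and 30741 in Control. LYZ (lysozyme) had 3704, 1730, 3132 and 1514 in the same order, and was higher with DCVC. The part of these markers in the results was not tested.

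One feature of the libraries cut across the treatments. In the libraries lettered A and B, 16 of the 29 tested members stood above all of the letters C to F in each of the 4 groups, against 4.44% of all tested genes. No member stood at the bottom in A and B in all 4 groups, against 3.23% of genes. For the letters C and D the corresponding counts were 0 members at the top and 0 at the bottom, against 0.763% and 0.568% of genes, and for E and F they were 0 at the top and 1 at the bottom, against 2.25% and 2.65%. The 1 member lowest in E and F was DNAJB9. The 16 members were XBP1, CREB3L2, HSPA5, HSP90B1, HYOU1, CANX, DNAJB11, DNAJC3, SDF2L1, MANF, all 4 disulfide isomerases, DERL1 and SEC24D. The median log2 difference of A and B from the other letters, averaged over the groups, was 0.29 over the members and 0.03 over all genes.

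SEC24D, a cargo-binding subunit of the coat of ER export vesicles, showed the pattern most plainly. In DCVC_LPS it measured 3282 and 3615 normalized counts in A and B, and 1924 to 2372 in the other letters. In LPS, A and B held 2574 and 2985 against 1587 to 1898, in DCVC 3820 and 4301 against 2162 to 2523, and in Control 4181 and 4189 against 2031 to 2575. HSPA5, the main ER chaperone of the Hsp70 family, measured 26875 and 28397 normalized counts in Control A and B and 13060 to 17907 in the other 4 Control libraries. EDEM1 and ERN1 did not share the pattern, with log2 differences of 0.01 for each, and HERPUD1 lay at -0.05. Libraries lettered F were low for many members. Control F held the lowest Control value for 22 of the 29 members, against 26.2% of all tested genes, and the F library of the other groups held the lowest value of its group for 14 members in DCVC_LPS, 16 in LPS and 16 in DCVC, against 23.2%, 23% and 21.9% of genes.

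**Figure D1:**
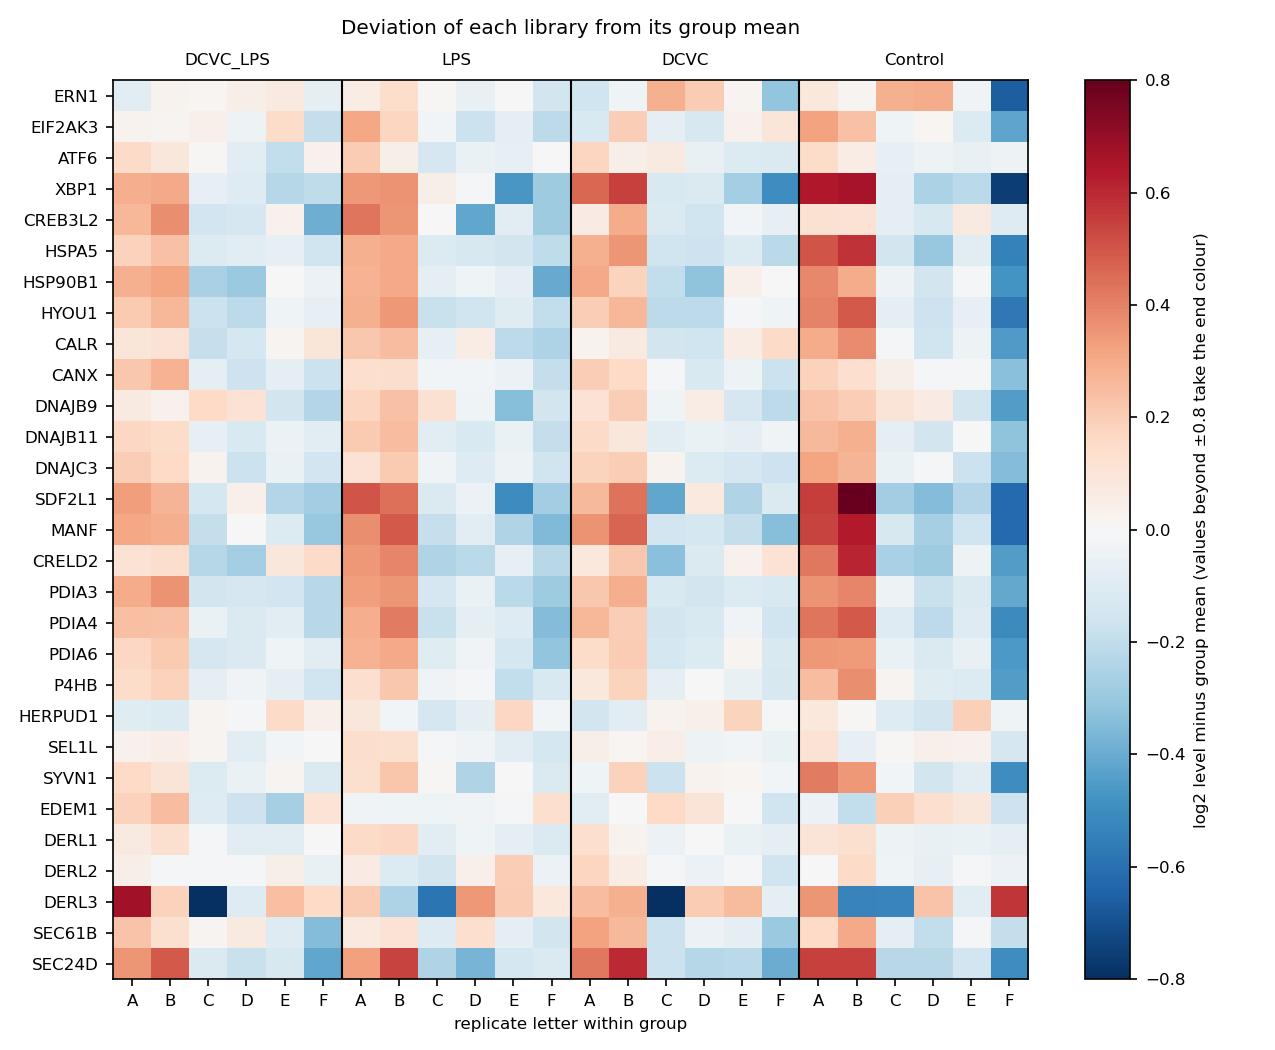
Deviation of each library (columns, by group and replicate letter) from the mean of its group for the 29 tested members (rows), as log2 of the normalized count plus 1, with the colour scale ending at ±0.8. Libraries A and B are red for most chaperones and disulfide isomerases in all 4 groups, and Control F is blue for most members.

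Because the letters carry a shared part of the spread, a fit with the letter as a block gave smaller standard errors. For LPS minus Control the ratio of the error with the block to that without it had a median of 0.54 over the members and 0.82 over all tested genes. It was 0.28 for SEC24D, 0.32 for PDIA3 and 0.34 for MANF, and 1.04 for EDEM1. The block added 26 calls to the 145 tests of members in 5 comparisons and removed 0. How many calls it added over all tested genes is not given here. The added calls of members are given below, with the unblocked fit as the principal one. Libraries also ran alike within the letter pairs A and B, C and D, and E and F, so the p-values with the block may be too small.

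LPS alone raised some members of this response and lowered others. Compared with Control, 12 of the 29 tested members rose, 7 fell and 10 were not called, at a limma adjusted p under 0.05 over all genes. Over all tested genes 37.8% rose and 40.6% fell. The median log2 change was 0.15 over the members. XBP1, EDEM1, DNAJB9, SEC61B, ATF6 and DERL1 rose on both scales. ERN1, CREB3L2, MANF, PDIA4, HERPUD1, DERL2 and SEC24D fell on both scales. With equal totals 6 members rose and 15 fell, where 22.4% of all genes rose and 59.5% fell.

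DCVC alone moved the members less far. Against Control, 8 members rose, 7 fell and 14 were not called, where 27.5% of all genes rose and 32.2% fell. The member log2 changes ran from -1.07 to 0.57, with a median of 0.08. ERN1, ATF6, CANX, DNAJB9, DNAJB11, P4HB, DERL1 and SEC61B rose on both scales, and HERPUD1 was the only member that fell on both. With equal totals 14 rose and 1 fell, where 46.1% of genes rose and 20.1% fell.

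DCVC given before LPS lowered XBP1, EDEM1 and HERPUD1 relative to LPS alone and raised CANX, DNAJB9, DNAJB11, PDIA3, PDIA4, P4HB and DERL2, on both scales. Between DCVC_LPS and LPS, 7 members rose, 8 fell and 14 were not called, where 33.3% of genes rose and 39.4% fell. With equal totals 21 rose and 3 fell, where 54.5% of genes rose and 21.9% fell. All 4 disulfide isomerases were among those 21.

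Between DCVC_LPS and DCVC, 12 members rose, 3 fell and 14 were not called, where 29.9% of all genes rose and 32.2% fell. XBP1, DNAJB9 and SEL1L rose and ERN1, CREB3L2 and HERPUD1 fell on both scales. With equal totals 3 rose and 6 fell, where 16.3% of genes rose and 52.7% fell. This comparison shares its DCVC_LPS libraries with the one before it.

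**Figure D2:**
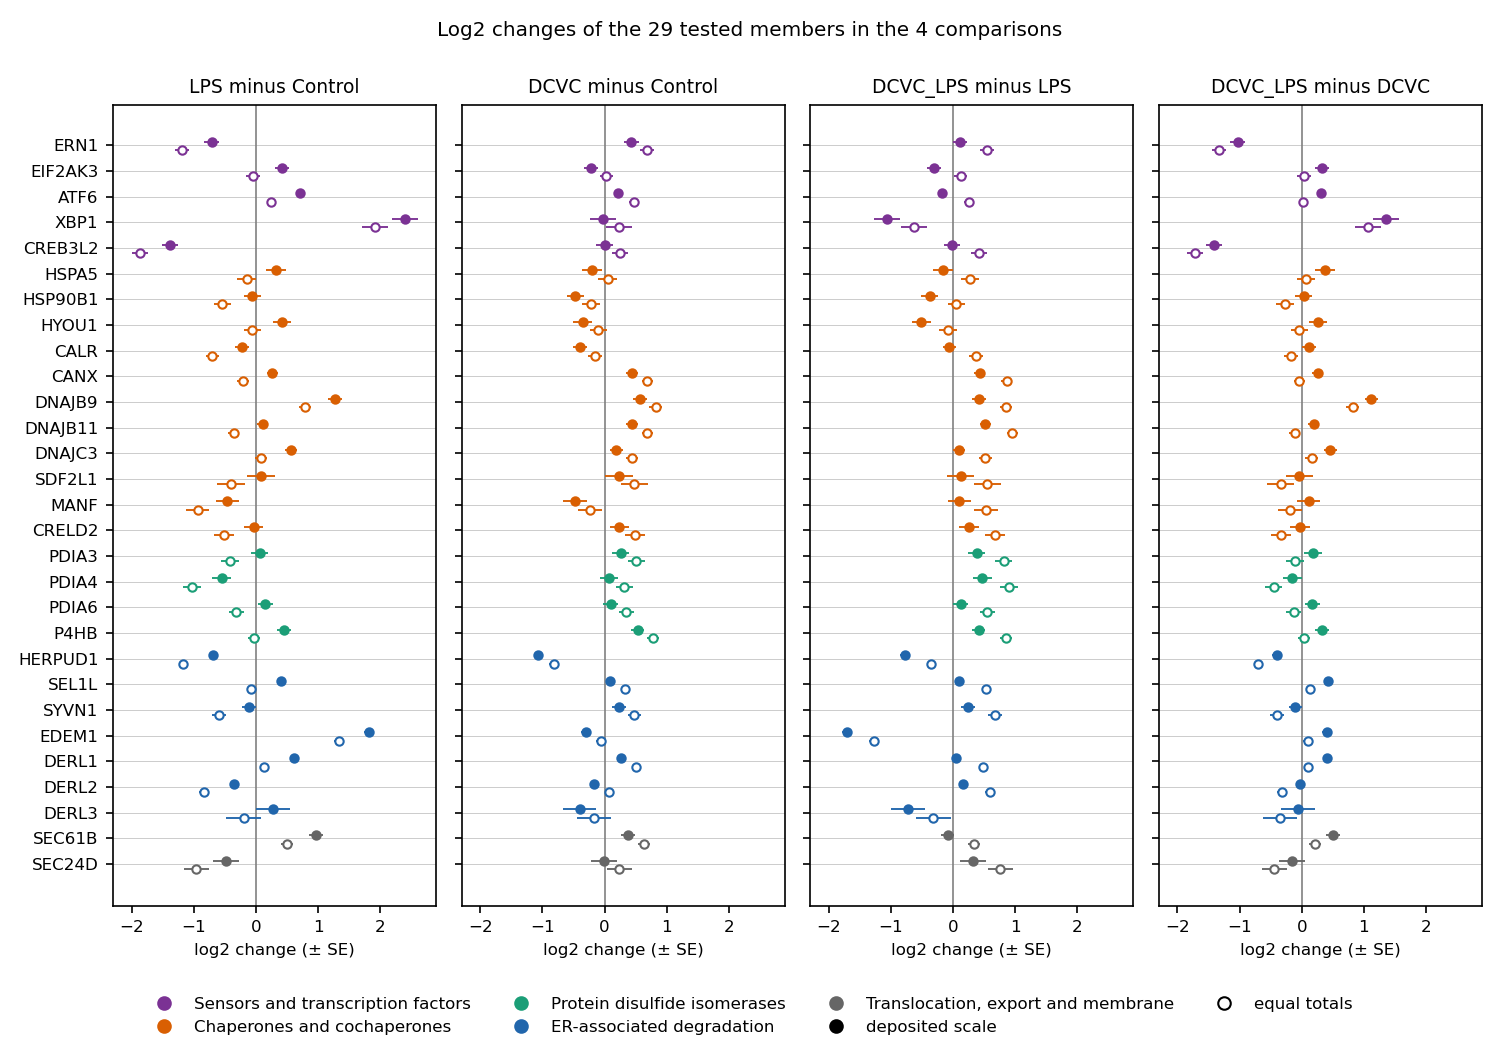
Log2 change with its standard error (horizontal axis) of the 29 tested members (rows, coloured by role) in 4 comparisons, on the deposited scale (filled) and with equal totals (open). XBP1 and EDEM1 lie farthest to the right for LPS minus Control and farthest to the left for DCVC_LPS minus LPS, and the open points of nearly all members are shifted by a like amount within a comparison.

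Among the sensors and transcription factors, XBP1 had the largest change in LPS against Control, on both scales. It ran from 2924 through a median of 3232 to 4235 normalized counts in DCVC_LPS, from 5171 through 7218 to 9161 in LPS, from 946 through 1232 to 1954 in DCVC, and from 800 through 1223 to 2138 in Control. All LPS libraries lay above all DCVC_LPS libraries, and both groups lay above DCVC and Control, which overlapped. XBP1 was 5.27-fold higher in LPS than in Control (log2 change 2.40 ± 0.21 SE, adjusted p = 1.97e-10). In DCVC_LPS it was 2.08-fold lower than in LPS (-1.06 ± 0.21, adjusted p = 0.0001) and 2.56-fold higher than in DCVC (1.36 ± 0.21, adjusted p = 5.75e-06). DCVC minus Control gave -0.02 ± 0.21 (adjusted p = 0.956). With equal totals the change in DCVC_LPS against LPS was -0.63 (adjusted p = 0.0084).

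ERN1, the sensor that splices XBP1, went the other way. Its levels were 675, 728 and 752 (lowest, median and highest) in DCVC_LPS, 599, 665 and 732 in LPS, 1182, 1463 and 1787 in DCVC, and 687, 1131 and 1337 in Control. The LPS-treated groups overlapped each other, DCVC_LPS lay wholly below DCVC, and LPS overlapped Control in part. ERN1 fell in LPS against Control (-0.71 ± 0.12, adjusted p = 6.79e-06) and in DCVC_LPS against DCVC (-1.03 ± 0.12, adjusted p = 4.33e-08). It rose in DCVC against Control (0.43 ± 0.12, adjusted p = 0.00287). With equal totals these changes were -1.19, -1.33 and 0.68, and DCVC_LPS minus LPS, 0.11 as deposited, was 0.54 (adjusted p = 0.000123).

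CREB3L2, an ER-resident transcription factor of the ATF6 type that is released by cleavage, measured 405, 515 and 689 in DCVC_LPS, 405, 526 and 726 in LPS, 1267, 1371 and 1739 in DCVC, and 1294, 1415 and 1541 in Control. Libraries with LPS all lay below libraries without it, and within each state the libraries with and without DCVC overlapped. CREB3L2 was 2.62-fold lower in LPS than in Control (-1.39 ± 0.13, adjusted p = 6.63e-10) and 2.66-fold lower in DCVC_LPS than in DCVC (-1.41 ± 0.13, adjusted p = 1.42e-09). The DCVC contrast without LPS was 0.00 ± 0.13, and DCVC_LPS minus LPS was -0.02 ± 0.13 on the deposited scale and 0.41 with equal totals (adjusted p = 0.00697).

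ATF6 measured 3208, 3734 and 4095 in DCVC_LPS, 3801, 4105 and 4807 in LPS, 2731, 2951 and 3331 in DCVC, and 2435, 2472 and 2819 in Control. LPS lay wholly above Control, and the other pairs compared overlapped. ATF6 rose in LPS against Control (0.71 ± 0.07, adjusted p = 4.44e-10) and in DCVC against Control (0.22 ± 0.07, adjusted p = 0.00629). With equal totals these were 0.24 and 0.47, and DCVC_LPS minus DCVC was 0.31 as deposited (adjusted p = 0.00024) and 0.02 with equal totals. DCVC_LPS minus LPS turned its sign with the scale, at -0.18 ± 0.07 as deposited (adjusted p = 0.0169) and 0.25 with equal totals (adjusted p = 0.00142), called on both. The deposited-scale call was lost without LPS A or DCVC_LPS E (adjusted p = 0.0566 and 0.0568).

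EIF2AK3, the sensor that restrains translation, measured 293, 340 and 371 in DCVC_LPS, 360, 402 and 516 in LPS, 243, 262 and 305 in DCVC and 231, 307 and 387 in Control. All pairs of groups compared overlapped. On the deposited scale it rose in LPS against Control (0.42 ± 0.11, adjusted p = 0.000978) and fell in DCVC_LPS against LPS (-0.31 ± 0.11, adjusted p = 0.012). With equal totals both changes turned and neither was called, at -0.05 and 0.12. DCVC_LPS minus DCVC was 0.33 ± 0.11 as deposited (adjusted p = 0.00971) and 0.04 with equal totals (adjusted p = 0.773). The change in DCVC against Control was -0.22 ± 0.11 (adjusted p = 0.081), and it was called with the block (adjusted p = 0.0346) and without Control F (adjusted p = 0.011). With equal totals it was 0.03 and not called.

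**Figure D3:**
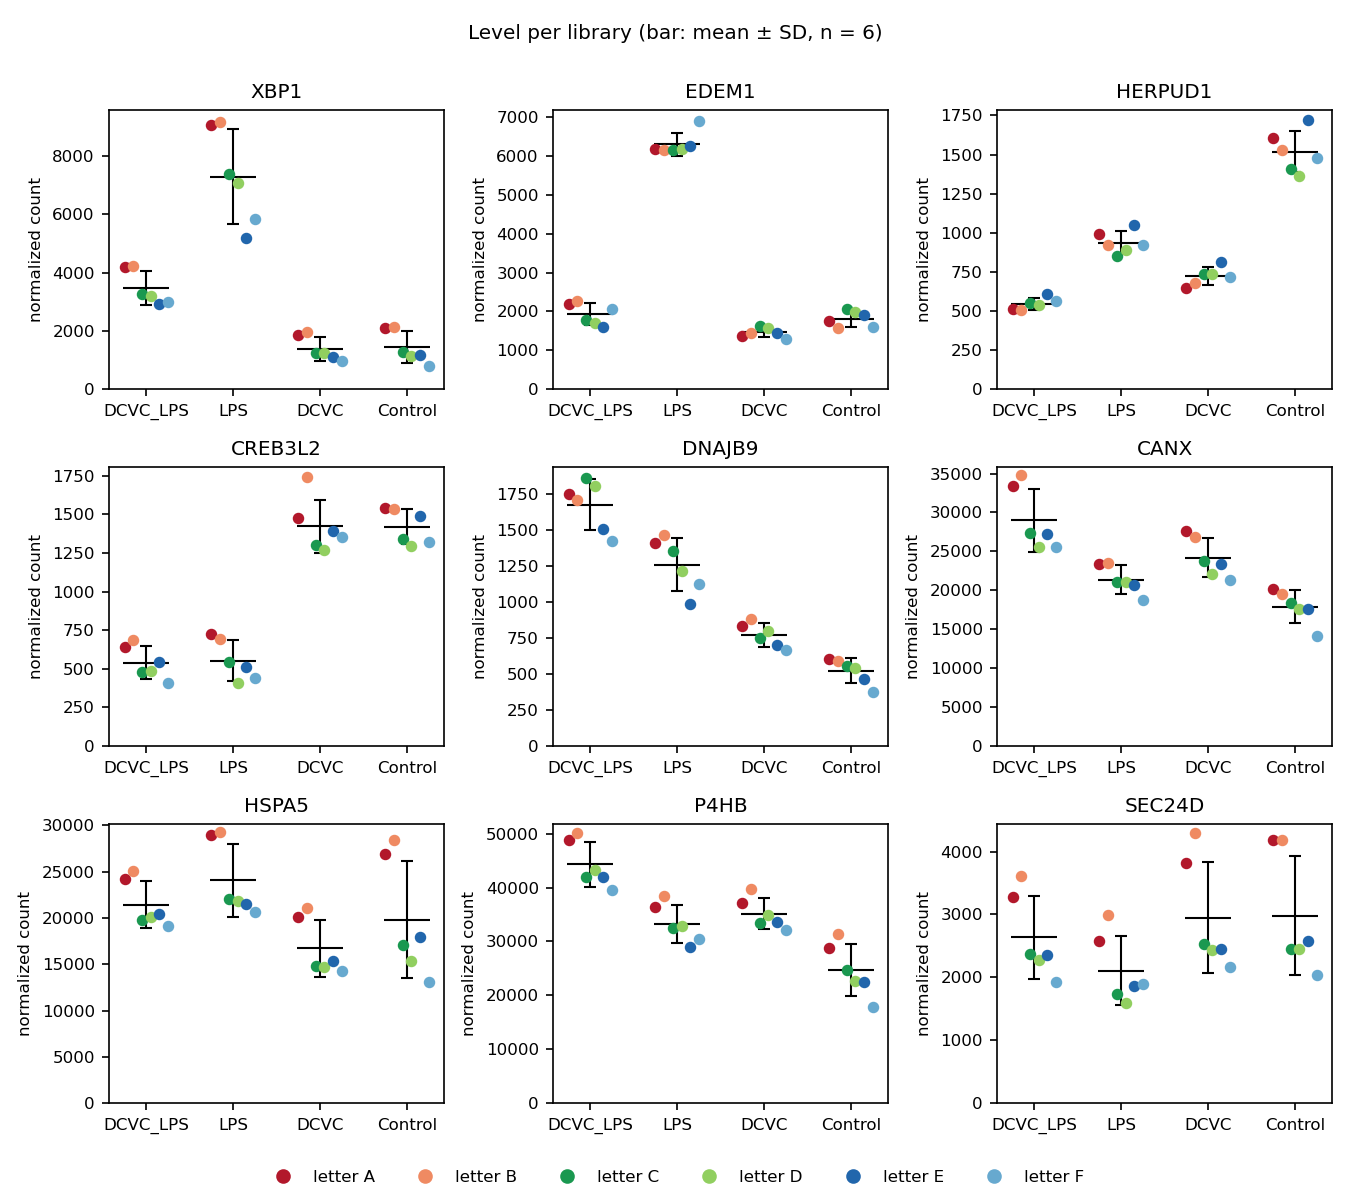
Normalized counts (vertical axis, from 0) of 9 members in each of the 24 libraries, by group and coloured by replicate letter, with the mean and SD of each group (n = 6). XBP1 and EDEM1 are highest in LPS, HERPUD1 is highest in Control and lowest in DCVC_LPS, and letters A and B top most panels.

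The luminal chaperones HSPA5, HSP90B1 and CALR were not called in LPS against Control on the deposited scale, and HSP90B1 and CALR were lower there with equal totals (-0.54 and -0.70, adjusted p = 0.00117 and 3.22e-06). HSPA5 measured 19107, 20234 and 25073 normalized counts in DCVC_LPS, 20679, 21923 and 29344 in LPS, 14225, 15057 and 21110 in DCVC, and 13060, 17517 and 28397 in Control. The ranges of all 4 groups overlapped. LPS minus Control was 0.32 ± 0.16 (adjusted p = 0.0637) and was called with the block (adjusted p = 0.000211). Without Control A, Control B or LPS F it was called too (adjusted p = 0.0156, 0.0097 and 0.0499), and with equal totals it was -0.15 and not called. DCVC_LPS minus DCVC was 0.37 ± 0.16 (adjusted p = 0.0447), a call that was lost without any 1 of 8 libraries, namely DCVC_LPS A, B, D or E and DCVC C, D, E or F (adjusted p = 0.0514 to 0.0962). With the block HSPA5 was also called lower in DCVC than in Control (-0.20, adjusted p = 0.0133) and in DCVC_LPS than in LPS (-0.16, adjusted p = 0.0429). In the unblocked fit with equal totals these 2 changes turned to 0.05 and 0.27 and were not called (adjusted p = 0.809 and 0.113). DCVC_LPS minus DCVC was then 0.07 and not called (adjusted p = 0.686).

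HSP90B1 (GRP94), the Hsp90 of the ER, measured 11895, 14420 and 18230 in DCVC_LPS, 14379, 18381 and 23467 in LPS, 11451, 14554 and 17668 in DCVC, and 14239, 19509 and 25944 in Control, with overlap throughout. It was lower in DCVC than in Control (-0.47 ± 0.14, adjusted p = 0.00725) and in DCVC_LPS than in LPS (-0.38 ± 0.14, adjusted p = 0.0222). With equal totals neither was called, at -0.22 and 0.05. The second call was lost without LPS A or B or without DCVC_LPS C or D (adjusted p = 0.0574 to 0.0611). LPS minus Control was -0.06 ± 0.14 (adjusted p = 0.704).

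HYOU1 (GRP170), which exchanges nucleotide on HSPA5, averaged 8986 ± 1246 in DCVC_LPS, 12850 ± 2307 in LPS, 7507 ± 1046 in DCVC and 9772 ± 2617 in Control (SD, n = 6 each). It rose in LPS against Control (0.42 ± 0.15, adjusted p = 0.0111) and fell in DCVC_LPS against LPS (-0.51 ± 0.15, adjusted p = 0.00306), on the deposited scale only. With equal totals these changes were -0.06 and -0.08, and DCVC minus Control was -0.10, none of them called. On the deposited scale its fall in DCVC against Control (-0.35 ± 0.15, adjusted p = 0.0422) was lost without Control A or B or DCVC C, D, E or F (adjusted p = 0.0606 to 0.127). The change in DCVC_LPS against DCVC, 0.26, was called with the block (adjusted p = 0.00256), and with equal totals it was -0.04 and not called.

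CALR and CANX, the lectin chaperones that hold newly made glycoproteins, differed from each other. CANX, the membrane-bound one, measured 25522, 27293 and 34805 in DCVC_LPS, 18714, 21015 and 23454 in LPS, 21338, 23605 and 27566 in DCVC, and 14079, 17983 and 20178 in Control. DCVC_LPS lay wholly above LPS and DCVC wholly above Control. CANX rose by a like amount in both, at 0.43 ± 0.09 in DCVC_LPS against LPS (adjusted p = 0.000228) and 0.44 ± 0.09 in DCVC against Control (adjusted p = 0.000303). It also rose with LPS on the deposited scale, at 0.26 ± 0.09 against Control (adjusted p = 0.0136) and 0.26 ± 0.09 in DCVC_LPS against DCVC (adjusted p = 0.0205), but with equal totals the first was called lower at -0.21 (adjusted p = 0.0275) and the second was -0.04 and not called (adjusted p = 0.696). The deposited-scale call of the second was lost without DCVC_LPS A, DCVC_LPS B or DCVC F (adjusted p = 0.0592, 0.0654 and 0.0538).

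CALR, the soluble lectin chaperone, measured 21215, 25151 and 26198 in DCVC_LPS, 21200, 25130 and 29914 in LPS, 19865, 22849 and 24682 in DCVC, and 21396, 28669 and 38037 in Control. The ranges overlapped. CALR fell in DCVC against Control (-0.40 ± 0.11, adjusted p = 0.00425), which became -0.15 with equal totals (adjusted p = 0.239). LPS minus Control was -0.22 ± 0.11 (adjusted p = 0.0835), called with the block (adjusted p = 0.029) and without LPS A, LPS B or Control F (adjusted p = 0.049, 0.0413 and 0.00999). DCVC_LPS minus LPS was -0.06 as deposited and 0.37 with equal totals (adjusted p = 0.00404).

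DNAJB9 (ERdj4), a cochaperone of HSPA5 and a known XBP1 target, was highest in DCVC_LPS and lowest in Control. It measured 1419, 1727 and 1861 in DCVC_LPS, 982, 1286 and 1465 in LPS, 665, 776 and 879 in DCVC, and 377, 547 and 605 in Control. Every group lay wholly above the next one down except that DCVC_LPS and LPS overlapped slightly. DNAJB9 was 2.41-fold higher in LPS than in Control (1.27 ± 0.11, adjusted p = 1.31e-10) and 2.17-fold higher in DCVC_LPS than in DCVC (1.12 ± 0.11, adjusted p = 3.81e-09). It was also higher in DCVC than in Control (0.57 ± 0.11, adjusted p = 9.74e-05) and in DCVC_LPS than in LPS (0.42 ± 0.11, adjusted p = 0.00158). All 4 changes were called on both scales.

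DNAJB11 (ERdj3), another cochaperone of HSPA5, measured 2346, 2451 and 2865 in DCVC_LPS, 1559, 1693 and 2108 in LPS, 2100, 2172 and 2487 in DCVC, and 1317, 1598 and 2004 in Control. Libraries with DCVC lay wholly above their counterparts without it. DNAJB11 rose in DCVC_LPS against LPS (0.52 ± 0.09, adjusted p = 2.67e-05) and in DCVC against Control (0.44 ± 0.09, adjusted p = 0.00029). The LPS changes, 0.11 without DCVC and 0.19 with it, were called on the deposited scale only with the block (adjusted p = 0.0342 and 0.0013). With equal totals the change without DCVC was called lower, at -0.36 (adjusted p = 0.00088), and that with DCVC was -0.11 and not called.

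DNAJC3 (P58IPK), an ER cochaperone and inhibitor of PERK, averaged 3291 ± 357 in DCVC_LPS, 3085 ± 303 in LPS, 2401 ± 271 in DCVC and 2117 ± 374 in Control. On the deposited scale it rose with LPS, by 0.56 ± 0.10 over Control (adjusted p = 2.2e-05) and by 0.46 ± 0.10 in DCVC_LPS over DCVC (adjusted p = 0.000379). With equal totals these were 0.08 and 0.16 and were not called. DCVC minus Control was 0.19 (adjusted p = 0.102) and was called with the block (adjusted p = 0.00101) and without Control A or B (adjusted p = 0.0305 and 0.0392). With equal totals DNAJC3 was higher with DCVC, by 0.44 over Control (adjusted p = 0.000375) and by 0.52 in DCVC_LPS over LPS (adjusted p = 3.81e-05).

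The small secreted or luminal factors MANF, SDF2L1 and CRELD2, all known as ER stress-inducible, gave no rise on the deposited scale in the unblocked fit. MANF measured 705, 839 and 1077 in DCVC_LPS, 638, 741 and 1141 in LPS, 637, 727 and 1114 in DCVC, and 728, 1015 and 1743 in Control. It was lower in LPS than in Control (-0.46 ± 0.19, adjusted p = 0.033) and in DCVC than in Control (-0.48 ± 0.19, adjusted p = 0.0378), in overlapping groups. Both calls were lost without Control A or B or without any 1 of C to F in the treated group (adjusted p = 0.0554 to 0.106 for LPS and 0.0688 to 0.114 for DCVC). With equal totals the DCVC change of MANF was -0.23 and not called (adjusted p = 0.299). SDF2L1 was not called in any of the 4 comparisons on the deposited scale, with changes from -0.04 to 0.23 and group means from 813 ± 373 in Control to 902 ± 200 in DCVC. CRELD2 was not called either, with changes from -0.04 to 0.25. With the block it was called higher in DCVC than in Control (0.24, adjusted p = 0.0344) and in DCVC_LPS than in LPS (0.25, adjusted p = 0.0212), and without Control B in the first of these (adjusted p = 0.0382). With equal totals DCVC_LPS exceeded LPS for SDF2L1 (0.55, adjusted p = 0.0264), CRELD2 (0.68, adjusted p = 0.000421) and MANF (0.53, adjusted p = 0.0149). CRELD2 then also rose in DCVC (0.49, adjusted p = 0.00953) and fell in LPS (-0.52, adjusted p = 0.00412) against Control.

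Of the disulfide isomerases, P4HB (PDI) and PDIA4 (ERp72) differed most between groups. P4HB measured 39612, 42663 and 50194 in DCVC_LPS, 28955, 32725 and 38435 in LPS, 32068, 34276 and 39765 in DCVC, and 17827, 23691 and 31460 in Control. DCVC_LPS lay wholly above LPS and DCVC wholly above Control. P4HB rose in DCVC_LPS against LPS (0.41 ± 0.11, adjusted p = 0.0011) and in DCVC against Control (0.53 ± 0.11, adjusted p = 0.000131). The LPS changes of P4HB, 0.45 without DCVC and 0.33 with it, were called on the deposited scale (adjusted p = 0.000449 and 0.00833) and were -0.03 and 0.04 with equal totals.

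PDIA4 measured 4221, 4703 and 5814 in DCVC_LPS, 2807, 3346 and 4748 in LPS, 4896, 5186 and 6556 in DCVC, and 3665, 4861 and 7324 in Control. LPS was the lowest group, though its A and B libraries reached into the ranges of DCVC_LPS and Control. PDIA4 fell in LPS against Control (-0.55 ± 0.15, adjusted p = 0.00171) and rose in DCVC_LPS against LPS (0.47 ± 0.15, adjusted p = 0.00677), with -1.03 and 0.90 on equal totals. DCVC_LPS minus DCVC was -0.15 and was called with the block (adjusted p = 0.0324), and with equal totals it was called at -0.45 (adjusted p = 0.00877).

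PDIA3 (ERp57), the isomerase that works with CALR and CANX, averaged 13097 ± 2448 in DCVC_LPS, 10055 ± 1986 in LPS, 11473 ± 1634 in DCVC and 9686 ± 2143 in Control. It rose in DCVC_LPS against LPS (0.38 ± 0.14, adjusted p = 0.0187), a call lost without DCVC_LPS A, DCVC_LPS B or LPS F (adjusted p = 0.053, 0.0572 and 0.0507). DCVC minus Control was 0.26 (adjusted p = 0.117) and was called with the block (adjusted p = 3.76e-05) and without Control B (adjusted p = 0.0437), and with equal totals it was 0.51 (adjusted p = 0.00234). With LPS the change without DCVC was 0.06, which was called lower at -0.42 with equal totals (adjusted p = 0.00788). The LPS change with DCVC was 0.18, called with the block (adjusted p = 0.00135), and was -0.11 and not called with equal totals. PDIA6 was not called on the deposited scale, with changes from 0.10 to 0.17. With the block its LPS changes of 0.15 without DCVC and 0.17 with it were called (adjusted p = 0.0184 and 0.012). With equal totals the first became -0.32 (adjusted p = 0.0135), and the second was -0.13 and not called. PDIA6 then also rose with DCVC, by 0.35 over Control (adjusted p = 0.0111) and by 0.55 in DCVC_LPS over LPS (adjusted p = 0.000167). PDIA3 shares sequence with the pseudogene PDIA3P1, which averaged 115 normalized counts, so a part of its reads may be assigned to either.

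In ER-associated degradation, EDEM1 and HERPUD1 moved in opposite directions with LPS. EDEM1, a lectin-like protein that directs glycoproteins to degradation, measured 1596, 1929 and 2279 in DCVC_LPS, 6152, 6179 and 6904 in LPS, 1301, 1453 and 1624 in DCVC, and 1566, 1830 and 2050 in Control. LPS stood wholly above the other groups, and DCVC_LPS overlapped Control and DCVC. EDEM1 was 3.5-fold higher in LPS than in Control (1.81 ± 0.08, adjusted p = 6.05e-16) and 3.28-fold lower in DCVC_LPS than in LPS (-1.71 ± 0.08, adjusted p = 1e-14). DCVC_LPS exceeded DCVC by 0.40 ± 0.08 (adjusted p = 0.0002), which was 0.10 and not called with equal totals. DCVC minus Control was -0.30 ± 0.08 (adjusted p = 0.00302), and -0.06 with equal totals.

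HERPUD1, a membrane protein that organises the degradation complex and a known target of ATF4 and ATF6, fell with both agents. It measured 504, 546 and 606 in DCVC_LPS, 851, 921 and 1048 in LPS, 649, 726 and 815 in DCVC, and 1365, 1502 and 1724 in Control. No 2 groups overlapped, in the order DCVC_LPS, DCVC, LPS and Control from low to high. HERPUD1 was 1.62-fold lower in LPS than in Control (-0.69 ± 0.07, adjusted p = 1.16e-09) and 2.10-fold lower in DCVC than in Control (-1.07 ± 0.07, adjusted p = 3.34e-12). It was 1.72-fold lower in DCVC_LPS than in LPS (-0.78 ± 0.07, adjusted p = 2.8e-10) and 1.32-fold lower than in DCVC (-0.40 ± 0.07, adjusted p = 1.49e-05). All were called on both scales. With equal totals they were -1.17, -0.82, -0.35 and -0.70 in the same order.

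SEL1L and SYVN1 (HRD1) form the core of the main ubiquitin ligase of the ER. SEL1L averaged 4194 ± 149 in DCVC_LPS, 3922 ± 307 in LPS, 3125 ± 96.0 in DCVC and 2967 ± 182 in Control. It rose with LPS by 0.40 ± 0.05 without DCVC (adjusted p = 1.36e-07) and by 0.42 ± 0.05 with it (adjusted p = 1.25e-07). With equal totals the second change stayed called at 0.13 (adjusted p = 0.019), and the first was -0.08 and not called. In DCVC_LPS against LPS the change of 0.10 was called with the block (adjusted p = 0.0355) and without LPS A or B (adjusted p = 0.032 and 0.0359). With equal totals SEL1L was called higher with DCVC, by 0.53 in DCVC_LPS against LPS (adjusted p = 2.74e-10) and by 0.33 in DCVC against Control (adjusted p = 1.73e-06). SYVN1 was not called on the deposited scale, with changes from -0.11 to 0.24. With the block it was called higher with DCVC, by 0.23 over Control (adjusted p = 0.0148) and by 0.24 in DCVC_LPS over LPS (adjusted p = 0.00958). The first was also called without Control A or B (adjusted p = 0.0142 and 0.0229), and the second without Control A, B or F or LPS B (adjusted p = 0.0257 to 0.0442). With equal totals SYVN1 was called in all 4 comparisons, at 0.67 for DCVC_LPS minus LPS, 0.48 for DCVC minus Control, -0.59 for LPS minus Control and -0.40 for DCVC_LPS minus DCVC. SYVN1 overlaps FAU and MIR6751 on the same strand in the annotation, so reads of these genes may be uncertain. The same holds for DNAJB11 with AC068631.2 and for HSP90B1 with MIR3652.

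The derlins, which form the channel through which substrates leave the ER, did not move together. DERL1 averaged 4139 ± 254 in DCVC_LPS, 4009 ± 357 in LPS, 3144 ± 171 in DCVC and 2626 ± 170 in Control, and rose in LPS (0.61 ± 0.06, adjusted p = 1.12e-09) and in DCVC (0.26 ± 0.06, adjusted p = 0.000576) against Control. With equal totals these were 0.13 and 0.51. In DCVC_LPS it exceeded DCVC by 0.40 ± 0.06 (adjusted p = 2.97e-06), which was 0.10 and not called with equal totals. DCVC_LPS minus LPS was 0.05 as deposited and was called at 0.48 with equal totals (adjusted p = 5.52e-08). DERL2 averaged 377 ± 11.0 in DCVC_LPS, 338 ± 29.7 in LPS, 385 ± 29.4 in DCVC and 434 ± 24.2 in Control. It fell in LPS (-0.36 ± 0.06, adjusted p = 2.03e-05) and in DCVC (-0.17 ± 0.06, adjusted p = 0.0232) against Control, and rose in DCVC_LPS against LPS (0.16 ± 0.06, adjusted p = 0.031). The DCVC change turned to 0.07 with equal totals and lost its call without Control B or DCVC F (adjusted p = 0.0625 and 0.0666). DCVC_LPS minus DCVC was -0.03 as deposited and was called at -0.32 with equal totals (adjusted p = 0.000179). The call of DCVC_LPS against LPS was lost without DCVC_LPS A or E or LPS B, C or F (adjusted p = 0.0548 to 0.0832).

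DERL3 was near the limit of the test, with 10 to 46 reads in a library. It averaged 21.2 ± 7.70 in DCVC_LPS, 34.3 ± 7.81 in LPS, 21.5 ± 5.78 in DCVC and 29 ± 9.31 in Control. Its only call was DCVC_LPS minus LPS (-0.73 ± 0.27, adjusted p = 0.0186), which was -0.32 with equal totals (adjusted p = 0.299) and was lost without DCVC_LPS C (adjusted p = 0.0693).

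SEC61B, a subunit of the translocation channel, measured 2209, 2900 and 3290 in DCVC_LPS, 2704, 2998 and 3280 in LPS, 1615, 1904 and 2479 in DCVC, and 1331, 1482 and 1881 in Control. LPS lay wholly above Control, and the other pairs tested against each other overlapped. It rose in LPS (0.97 ± 0.11, adjusted p = 1.01e-08) and in DCVC (0.38 ± 0.11, adjusted p = 0.00393) against Control, with 0.50 and 0.63 on equal totals. DCVC_LPS minus DCVC was 0.50 ± 0.11 (adjusted p = 0.000266), and 0.21 with equal totals (adjusted p = 0.081). DCVC_LPS minus LPS was -0.09 as deposited and was called higher at 0.34 with equal totals (adjusted p = 0.00498).

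SEC24D fell in LPS against Control (-0.48 ± 0.21, adjusted p = 0.0372), within groups that overlapped. The call was lost without Control A or B or LPS C, D, E or F (adjusted p = 0.0623 to 0.107), and the block gave the same change with an adjusted p of 1.03e-07. With the block it was also called higher in DCVC_LPS than in LPS (0.32, adjusted p = 2.66e-05) and lower in DCVC_LPS than in DCVC (-0.15, adjusted p = 0.0275). With equal totals DCVC_LPS minus LPS was called at 0.76 (adjusted p = 0.00181). WFS1, an ER membrane protein that is mutated in Wolfram syndrome, was barely detected, with 4 reads over the 6 libraries of DCVC_LPS, 2 in LPS, 10 in DCVC and 8 in Control, so that no difference was detectable at this depth.

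Whether the LPS response differed after DCVC was tested as an interaction, the LPS change with DCVC minus the LPS change without it. It was called positive for 2 members and negative for 5, with 22 not called, where 22% of all genes were positive and 23.7% negative. With equal totals the counts were 6 and 2, where 33.1% and 16.1% of genes were called, and MANF (0.75), PDIA4 (0.58), CALR (0.52) and SEL1L (0.20) were among the 6. EDEM1 had the most negative value, -1.41 ± 0.12 (adjusted p = 1.89e-09), as its LPS change was 0.40 with DCVC and 1.81 without it. XBP1 followed at -1.04 ± 0.30 (adjusted p = 0.00662), from LPS changes of 1.36 with DCVC and 2.40 without it. Both stayed called with equal totals, at -1.23 and -0.86. DNAJB9, like EDEM1 a known XBP1 target, had an interaction of -0.15 ± 0.16 (adjusted p = 0.45).

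SEC61B (-0.47 ± 0.15, adjusted p = 0.0136), ATF6 (-0.40 ± 0.09, adjusted p = 0.00115) and DERL1 (-0.21 ± 0.08, adjusted p = 0.0416) were called negative on the deposited scale only. With equal totals they lay at -0.29, -0.22 and -0.03 (adjusted p = 0.103, 0.0513 and 0.77). The DERL1 call was lost on leaving out 13 of the 24 libraries singly (adjusted p = 0.0524 to 0.0793), and that of SEC61B on leaving out letter D (adjusted p = 0.0589). HERPUD1 (0.29 ± 0.10, adjusted p = 0.0157) and DERL2 (0.33 ± 0.09, adjusted p = 0.00445) were positive on both scales, both with smaller LPS falls after DCVC. In edgeR the HERPUD1 value was 0.23 and not called (adjusted p = 0.0546). For HERPUD1 the LPS change was -0.40 with DCVC and -0.69 without it. With the block 5 further members were called, namely MANF (0.57, adjusted p = 2.61e-05), PDIA4 (0.40, adjusted p = 0.000435), CALR (0.34, adjusted p = 0.0266), SEC24D (0.33, adjusted p = 0.00154) and ERN1 (-0.32, adjusted p = 0.0319). Without Control F, the unblocked fit also called MANF, PDIA4 and CALR (adjusted p = 0.0326, 0.0405 and 0.0181), and MANF was called without LPS B (adjusted p = 0.0481).

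**Figure D4:**
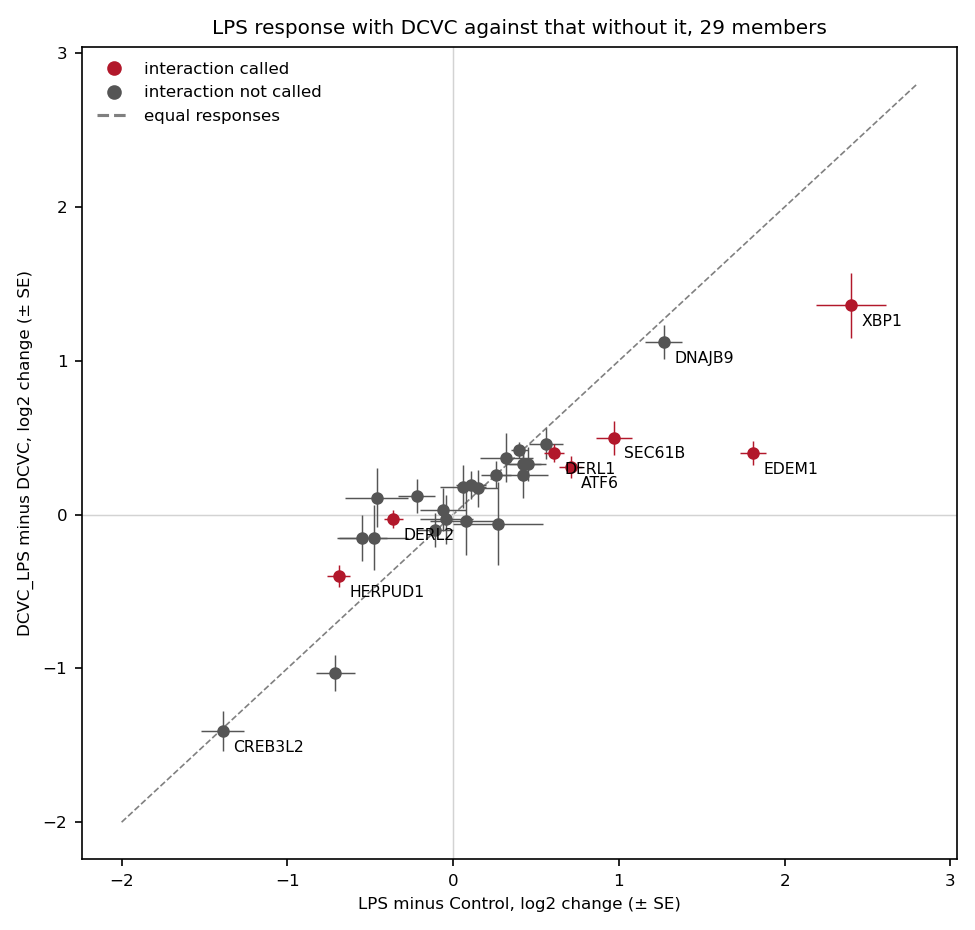
Log2 LPS change with DCVC (vertical, DCVC_LPS minus DCVC) against that without DCVC (horizontal, LPS minus Control) for 29 members, with standard errors, and members with a called interaction in red. EDEM1 and XBP1 lie farthest below the line of equal responses, at 0.40 and 1.36 on the vertical axis against 1.81 and 2.40 on the horizontal one.

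The 9 members with an ERSE or ERSE-II in the promoter window did not share a direction. Against Control with LPS, XBP1, HYOU1 and CANX rose and HERPUD1 fell, with the other 5 not called, and the median log2 change was 0.08. Over all tested genes 37.8% rose and 40.6% fell in that comparison. With equal totals XBP1 alone of the 9 rose, and HSP90B1, CALR, CANX, CRELD2 and HERPUD1 fell. HSPA5, HYOU1 and SDF2L1 were not called there. Over all genes 22.4% rose and 59.5% fell on that scale. Among the 16 tested members with a matched promoter and neither element 8 rose and 5 fell, with a median of 0.28. With DCVC, 1 of the 9 rose and 4 fell against Control, as did 6 and 3 of the 16, where 27.5% of all genes rose and 32.2% fell. In DCVC_LPS against LPS 1 of the 9 rose and 4 fell, as did 5 and 3 of the 16, where 33.3% of all genes rose and 39.4% fell. These counts are on the deposited scale. In DCVC against Control with equal totals, CANX and CRELD2 of the 9 rose and HERPUD1 fell. Over all genes 46.1% rose and 20.1% fell there. In DCVC_LPS against LPS with equal totals, CALR, CANX, SDF2L1 and CRELD2 rose and XBP1 and HERPUD1 fell. Over all genes 54.5% rose and 21.9% fell in that comparison. Members high in A and B in all groups numbered 6 of the 9 and 7 of the 16.

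Genes outside the list that belong to the same machinery were set beside the members in 7 lists holding 133 genes. Their counts are on the deposited scale unless stated, and are to be read beside those over all tested genes. There 37.8% rose and 40.6% fell in LPS against Control, 27.5% and 32.2% in DCVC against Control, and 33.3% and 39.4% in DCVC_LPS against LPS. With equal totals the shares were 22.4% and 59.5%, 46.1% and 20.1%, and 54.5% and 21.9% in the same order. Of the 11 tested genes listed for the PERK and ATF4 branch, 9 rose and 2 fell in LPS against Control, with a median log2 change of 1.62. Not every gene on that list need be an output of the branch, and the activity of the branch was not tested. With equal totals 7 rose and 2 fell, with a median of 1.14. PPP1R15B, which acts in the branch by directing the removal of phosphate from eIF2, averaged 8283 ± 646 in LPS and 1748 ± 89.6 in Control (log2 change 2.24 ± 0.06, adjusted p = 3.17e-20). TRIB3, a pseudokinase induced by ATF4 signalling, averaged 284 ± 54.3 in LPS and 551 ± 72.3 in Control (-0.97 ± 0.13, adjusted p = 3.73e-07). Against Control with DCVC 1 of the 11 rose and 4 fell, with ATF3 rising (0.74 ± 0.17, adjusted p = 0.000791) and ATF4 falling (-0.53 ± 0.08, adjusted p = 9.18e-06), and with equal totals 5 rose and 3 fell. In DCVC_LPS against LPS 2 rose and 8 fell, with a median of -0.60, and with equal totals 3 rose and 5 fell, with a median of -0.17. ATF3, a stress-induced transcription factor, averaged 12646 ± 3367 in DCVC_LPS and 4160 ± 1277 in LPS (1.61 ± 0.17, adjusted p = 1.12e-08), and PPP1R15B fell (-1.01 ± 0.06, adjusted p = 3.99e-13).

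Among 23 tested further chaperones and glycoprotein folding factors, 8 rose and 9 fell in LPS against Control, 11 rose and 4 fell in DCVC against Control, and 11 rose and 3 fell in DCVC_LPS against LPS. On equal totals the counts were 2 and 18, 16 and 3, and 18 and 1 in that order. RCN1 (reticulocalbin 1), a calcium-binding protein of the ER lumen, averaged 1759 ± 331 in DCVC_LPS, 6628 ± 784 in LPS and 899 ± 108 in Control. It rose in LPS against Control (2.88 ± 0.10, adjusted p = 2.57e-18) and fell in DCVC_LPS against LPS (-1.93 ± 0.10, adjusted p = 3.02e-14). SERPINH1 (HSP47), the collagen chaperone, fell in LPS against Control (-1.58 ± 0.09, adjusted p = 4.02e-14). DNAJC1 rose (0.92 ± 0.08, adjusted p = 5.2e-10) and RCN2 fell (-0.66 ± 0.12, adjusted p = 5.26e-05) in DCVC against Control. SDF2, a relative of SDF2L1, rose in DCVC_LPS against LPS (0.74 ± 0.05, adjusted p = 5.44e-12).

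Of 29 further tested genes of ER-associated degradation, 16 rose and 7 fell in LPS against Control, 14 rose and 6 fell in DCVC against Control, and 15 rose and 8 fell in DCVC_LPS against LPS. On equal totals 7 rose and 17 fell, 22 rose and 2 fell, and 23 rose and 2 fell. NPLOC4, a cofactor of the p97 segregase, rose (1.17 ± 0.06, adjusted p = 9.39e-15) and ERLIN2 fell (-1.28 ± 0.06, adjusted p = 3.48e-15) in LPS against Control. OS9, a lectin that hands glycoproteins to SEL1L, was higher with DCVC, averaging 13433 ± 371 in DCVC_LPS, 8728 ± 324 in LPS, 11938 ± 227 in DCVC and 7867 ± 355 in Control. It rose by 0.62 ± 0.04 in DCVC_LPS against LPS (adjusted p = 2.31e-12) and by 0.60 ± 0.04 in DCVC against Control (adjusted p = 1.33e-11).

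Among 15 tested further disulfide isomerases and oxidases, 9 rose and 5 fell in LPS, 6 rose and 2 fell in DCVC, each against Control, and 3 rose and 7 fell in DCVC_LPS against LPS. These became 5 and 9, 8 and 2, and 9 and 2 with equal totals. ERO1B, which oxidises disulfide isomerases, rose in LPS (1.61 ± 0.09, adjusted p = 3.12e-14) and in DCVC (0.70 ± 0.09, adjusted p = 5.25e-07). TXNDC12 (ERp18) fell in LPS (-0.71 ± 0.06, adjusted p = 1.99e-10) and rose in DCVC_LPS against LPS (0.84 ± 0.06, adjusted p = 2.22e-11), where TMX4 fell (-1.06 ± 0.13, adjusted p = 9.72e-08). SELENOF fell in DCVC (-0.48 ± 0.06, adjusted p = 3.19e-07).

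Of 23 further genes of the translocon and signal peptide processing, 11 rose in each of these comparisons, while 6 fell in LPS against Control, 2 in DCVC against Control and 5 in DCVC_LPS against LPS. After scaling to equal totals 5 rose and 13 fell, 17 rose and 1 fell, and 17 rose and 0 fell in the same order. SRP72 of the signal recognition particle rose in LPS against Control (0.69 ± 0.06, adjusted p = 3.94e-10) and fell in DCVC_LPS against LPS (-0.43 ± 0.06, adjusted p = 1.48e-06), the second being 0.00 with equal totals. SEC11A of the signal peptidase fell in LPS (-0.68 ± 0.12, adjusted p = 1.35e-05). SRP19 rose (0.72 ± 0.08, adjusted p = 2.94e-08) and SPCS3 fell (-0.54 ± 0.10, adjusted p = 6.87e-05) in DCVC against Control, and SEC62 rose in DCVC_LPS against LPS (0.78 ± 0.09, adjusted p = 1.47e-08).

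Among 19 tested genes of the COPII coat and ER exit, 11 rose and 3 fell in LPS against Control, 6 rose and 1 fell in DCVC against Control, and 5 rose and 8 fell in DCVC_LPS against LPS. Equal totals gave 4 and 7, 17 and 1, and 12 and 1. SEC24A, a paralogue of SEC24D, rose in LPS (1.6 ± 0.08, adjusted p = 1.91e-15), where SEC24D fell. The cargo receptor subunit MCFD2 fell in LPS (-1.03 ± 0.09, adjusted p = 1.21e-10) and rose in DCVC_LPS against LPS (0.80 ± 0.09, adjusted p = 1.99e-08). Of the GTPases that start coat assembly, SAR1A fell (-0.49 ± 0.10, adjusted p = 0.000108) and SAR1B rose (0.41 ± 0.06, adjusted p = 7.72e-06) in DCVC against Control, and SAR1A fell in DCVC_LPS against LPS (-1.37 ± 0.10, adjusted p = 5.76e-12).

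Of 6 tested further sensors and their proteases, 3 rose and 3 fell in LPS, 0 rose and 2 fell in DCVC, each against Control, and 2 rose and 3 fell in DCVC_LPS against LPS. The counts with equal totals were 0 and 4, 3 and 1, and 2 and 1. MBTPS1 (site-1 protease), which cuts ATF6, rose in LPS (0.61 ± 0.07, adjusted p = 1.19e-08) and fell in DCVC_LPS against LPS (-0.54 ± 0.07, adjusted p = 1.24e-07), and these changes were 0.13 and -0.11 with equal totals. MBTPS2 (site-2 protease) fell in DCVC against Control (-0.45 ± 0.09, adjusted p = 0.000145). CREB3L4, a relative of CREB3L2, averaged 100 ± 8 in DCVC_LPS, 35.4 ± 6.93 in LPS and 138 ± 44.0 in Control. It fell in LPS against Control (-1.90 ± 0.16, adjusted p = 1.04e-10) and rose in DCVC_LPS against LPS (1.5 ± 0.16, adjusted p = 1.36e-08).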

How the data were processed

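The values deposited by the authors are a signal, reads divided by a factor per library. This was read from the values, which gave whole reads for 100% of values within a tolerance of 0.1 read. RNA was poly-A selected, per the labels' protocols. Per the submitters' processing notes, build hg38 and the tools DESeq2 1.24.0, R 3.6.0, featureCounts 1.6.1, STAR, MultiQC 0.9 and FastQC 0.11.5 were named. Annotation and strand setting were not given in the sources used here, so reads of members that overlap opposite-strand genes could not be separated. Entries without a gene name (33.56% of 58381, 0.99% of the values) were left out, and 51 symbols on 2 entries were summed.

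log2(value + 1) of genes with a mean of at least 10 was tested with limma 3.58.1 in R 4.3.3 (trend), 24 libraries in 1 fit with 20 residual degrees of freedom, and Benjamini-Hochberg adjustment over all tested genes. The pseudocount makes changes of low genes smaller. The procedure was tested on simulated counts drawn independently for each library, with no letter effect and no set difference in normalized totals between groups. That test therefore does not cover the spread shared within letters or the choice of scale. Alternatives used edgeR 4.0.16 and DESeq2 1.42.0 on recovered reads, other filters, pseudocounts, equal totals, a block on the letter and omission of libraries or letters. Letters were taken to pair libraries, since all 36 same-letter correlations of deviations from group means were above 0.1 (0.13 to 0.54), against -0.45 to 0.03 between letters outside the pairs A and B, C and D, and E and F. For different letters within a pair the correlations ran from 0.05 to 0.46, with 35 of 36 above 0.1. Their median was 0.29, and that of the same letter was 0.33. Of the 24 libraries, 20 correlated best with a library of their own letter in another group. The members and lists were chosen with earlier results of these data known. All members are named, and from each further list the called gene with the smallest adjusted p in each direction in the first 3 comparisons, of which 1 is not reported here. Of the 133 further genes, UGGT1 and SEC23A were not matched. Gene overlaps come from GENCODE 29.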

Additional observations from a re-analysis of the deposited data

Results flagged for a closer look

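In 116 groups of 6 values, 2 held a value far from the others by Dixon's criterion, which chance alone gives in about 1 group in 20. They were EDEM1 in LPS F, at 6904 normalized counts where the other 5 LPS libraries lay between 6152 and 6246, and DERL2 in Control B, at 481. The LPS change differed with DCVC for 7 members by the interaction test, at -1.41 for EDEM1, -1.04 for XBP1, -0.47 for SEC61B, -0.40 for ATF6, -0.21 for DERL1, 0.29 for HERPUD1 and 0.33 for DERL2 on the log2 scale. With equal totals EDEM1, XBP1, HERPUD1 and DERL2 of these stayed called. On the deposited scale the interaction was called positive for 22% of all tested genes and negative for 23.7%. With equal totals these shares were 33.1% and 16.1%.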

How the results depend on the processing

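On equal totals 6 members rose and 15 fell for LPS minus Control, 14 and 1 for DCVC minus Control, 21 and 3 for DCVC_LPS minus LPS, 3 and 6 for DCVC_LPS minus DCVC, and 6 and 2 for the interaction. The shares over all tested genes on that scale were given above. For the settings that follow such shares are not given, so their counts describe the members only and cannot be set against all genes. The letter block, which as noted added 26 calls and ended 0, gave 11 raised for DCVC_LPS minus LPS, 5 lowered for DCVC_LPS minus DCVC and 6 raised for the interaction. Block and equal totals together, tried after seeing the data, gave 6 and 17, 19 and 3, 22 and 3, and 6 and 13 in those 4 comparisons, and 12 raised for the interaction. With letters E and F alone 3 fell for LPS minus Control, 1 for DCVC minus Control and 4 for DCVC_LPS minus LPS, and the interaction gave 0 raised and 2 lowered. Letters A and B alone, and C and D alone, gave 6 raised for the interaction, and C and D gave 13 raised for DCVC minus Control. edgeR gave 1 raised for the interaction. Leaving out 1 library or letter gave 12 to 13 raised and 5 to 8 lowered for LPS minus Control, 8 to 12 and 4 to 8 for DCVC minus Control, 5 to 8 and 5 to 8 for DCVC_LPS minus LPS, 10 to 12 and 3 for DCVC_LPS minus DCVC, and 2 to 5 and 3 to 5 for the interaction. The 4 lowered by DCVC came without letter C, letter D, Control B or DCVC F, the 5 lowered in DCVC_LPS minus LPS and the 3 lowered in the interaction without letter D, and the 5 raised in the interaction without Control F.

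Equal totals turned the sign of 39 of the 145 changes, of which 16 were called on at least 1 of the scales. For LPS minus Control those 16 included EIF2AK3 (-0.05), HYOU1 (-0.06), CANX (-0.21), DNAJB11 (-0.36), PDIA3 (-0.42), PDIA6 (-0.32), P4HB (-0.03) and SEL1L (-0.08). For DCVC_LPS minus LPS they included EIF2AK3 (0.12), ATF6 (0.25), CREB3L2 (0.41), HSP90B1 (0.05), CALR (0.37) and SEC61B (0.34). The others were CANX for DCVC_LPS minus DCVC (-0.04) and DERL2 for DCVC minus Control (0.07). PDIA4 for DCVC minus Control was -0.16 with letters A and B alone. The cause of the reversals on equal totals is the scaling itself, which moves all genes of a library together, and the cause of the other moves was not tested. Other pseudocounts and DESeq2 ended 0 calls, edgeR ended 4 and no filter on low values ended 5. Depth limits DERL3 and WFS1.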
